A study of Homo sapiens with 4 samples.

Results

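The 5 genes described here are FLG, NR2F2, PPP1R26, ZNF711 and AMOT, which carried runs of regions richer in m6A-immunoprecipitated RNA of WT cells than of slow cells. The cells are HEK293, a human embryonic kidney line. The slow cells expressed a slowly elongating RNA polymerase II (RNAPII) whose genotype is labelled as an alpha-amanitin mutant, and the control cells carried RNAPII labelled wild type (WT). There were 2 libraries of each. All cells, WT included, were first given doxycycline (1 µg/ml, 24 h), followed by doxycycline plus α-amanitin (2.5 µg/ml, 42 h), a toxin that blocks RNAPII. The labels do not say whether the WT polymerase resists α-amanitin, nor whether libraries of the same genotype were independent cultures, so differences between them may be technical. The study compared m6A maps between slow and normal elongation.

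Members were the peaks overlapping 5 gene intervals of the hg19 build in 4 deposited peak lists. The slow library and the WT library of the same number form a pair, and each pair was called in both directions, so a peak is named slow-higher or WT-higher by which library was enriched. The 5 intervals held 46 of the 4889 peaks of the 4 lists. The genes were chosen by their numbers of WT-higher peaks in both pairs of these same lists, so peak numbers, pileups, folds and their recurrence between pairs are descriptions with no test. With 2 pairs, an exact sign-flip test could not give a two-sided p below 0.5 in any case. The lists set one m6A library against another with no input library, so less m6A on a transcript and less of the transcript cannot be told apart. They hold no expression levels against which the HEK293 label could be checked.

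N6-methyladenosine (m6A) is written on RNA by a METTL3-METTL14 complex, is read by YTH-domain proteins, and is known for clustering in long internal exons and around stop codons. FLG encodes profilaggrin, the precursor of the filaggrin units that bundle keratin in the outer epidermis, and its coding sequence is a tandem array of nearly identical filaggrin repeats. NR2F2 (COUP-TFII) is an orphan nuclear receptor that acts as a transcription factor, and ZNF711 is a zinc finger transcription factor whose loss causes X-linked intellectual disability. PPP1R26 is a regulatory subunit of protein phosphatase 1. AMOT, angiomotin, is a junctional scaffold protein that binds YAP in the Hippo pathway.

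Of the promoter sequences in RefSeq (GRCh38), those of FLG and ZNF711 are shown because they were the ones with a TATA box core. All 5 genes matched by symbol, with 2 windows for NR2F2. The NR2F2 windows belong to different annotated starts, and whether either precedes the main start of the gene was not checked. Each sequence gives the 250 bases before the annotated start, 5′ to 3′ on the transcribed strand, with capitals marking the letters TATAAA and CCAAT, the motifs searched on both strands.
FLG, chr1:152325240-152325489, minus strand: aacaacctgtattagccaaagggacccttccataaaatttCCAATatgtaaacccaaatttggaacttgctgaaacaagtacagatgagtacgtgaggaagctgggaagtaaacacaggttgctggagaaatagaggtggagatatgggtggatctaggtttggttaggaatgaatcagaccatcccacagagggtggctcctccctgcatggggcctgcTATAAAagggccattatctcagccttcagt
ZNF711, chrX:85243741-85243990, plus strand: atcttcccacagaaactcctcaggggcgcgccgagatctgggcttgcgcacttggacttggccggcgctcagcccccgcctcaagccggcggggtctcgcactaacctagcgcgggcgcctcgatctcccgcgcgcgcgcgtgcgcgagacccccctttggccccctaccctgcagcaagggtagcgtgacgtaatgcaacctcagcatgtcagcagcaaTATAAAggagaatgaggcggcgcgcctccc
The TATAAA began 30 bases before the annotated start in both. Of 35116 such windows of all genes, 10.7% held TATAAA and 32.0% held CCAAT, which FLG and 1 NR2F2 window carried. G and C made up 45.6% of the FLG window, against 60% and 60.4% in NR2F2, 66.4% in ZNF711, 68.8% in AMOT and 84.8% in PPP1R26, and the median of all windows was 58%. These letters are a description of the reference, and the peak positions below are in hg19 and were not laid over them.

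The libraries were shallow after duplicate removal, and this sets the precision of every value below. Before it, the slow libraries held 16417503 and 8804552 reads in pairs 1 and 2, and the WT libraries 20556035 and 15072336. The redundant share was 96% and 94% in the slow libraries and 92% in both WT libraries, so few distinct reads were left. The slow libraries kept 698050 and 547402 reads in pairs 1 and 2, and the WT libraries 1695246 and 1136611, which is 2.43 and 2.08 times as many. One WT fragment therefore counted 0.412 and 0.482 after scaling. Intervals cover counting error only. Bounds at summits with 0 slow fragments allow for error in the slow count only and take the WT count as exact. They use 3 fragments, a 1-sided 95% limit for a count of 0. They are therefore less strict than the 2-sided ratio intervals and not on equal terms with them.

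All called peaks in the 5 genes were WT-higher. The slow-higher lists had 0 peaks in the 5 intervals in either pair, and the WT-higher lists had 25 in pair 1 and 21 in pair 2. Over the whole series, 32.7% of peaks in pair 1 and 33.8% in pair 2 were WT-higher, and nothing is read from the contrast because it chose the genes. FLG held 7 WT-higher peaks in pair 1 and 5 in pair 2. NR2F2 and PPP1R26 held 4 in each pair. ZNF711 and AMOT held 5 in pair 1 and 4 in pair 2. The nearest slow-higher peak outside an interval lay 19083 bp from NR2F2 in pair 1, and at every other interval in either pair it was at least 606876 bp away.

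No other WT-higher peak lay close to the intervals. The nearest one outside any interval was 782992 bp away, beside FLG in pair 2. The number of peaks therefore did not change when the intervals were widened by 5 kb. The WT-higher lists held only 915 and 707 peaks, and distances around other runs were not computed, so nothing is read from this. WT-higher peaks at most 20 kb apart were chained with both pairs pooled. This gave 1045 runs, and 7 had at least 4 peaks in both pairs. The 5 genes account for 5 of these. The other 2 lay on chromosome 14 from 23583304 to 23591800, with 8 and 5 peaks, and on chromosome 16 from 89783750 to 89804535, with 5 and 4. Just below that limit, 4 runs reached 3 peaks in both pairs. A run of at least 4 peaks in 1 pair was not always met in the other, and 6 of 13 such runs had fewer than 4 there. Of these 6, a run on chromosome 17 had 4 and 3 peaks, one on chromosome 6 had 2 and 5, one on chromosome X had 1 and 5, and 3 on chromosome 1 had 4, 5 and 7 in pair 1 and 0 in pair 2. In the slow-higher lists, 29 of 1393 runs chained in the same way had at least 4 peaks in both pairs. AMOT formed 1 run only through the pooling. Its neighbouring summits were up to 23554 bp apart within pair 1 and up to 25515 bp apart within pair 2.

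**Figure D1:**
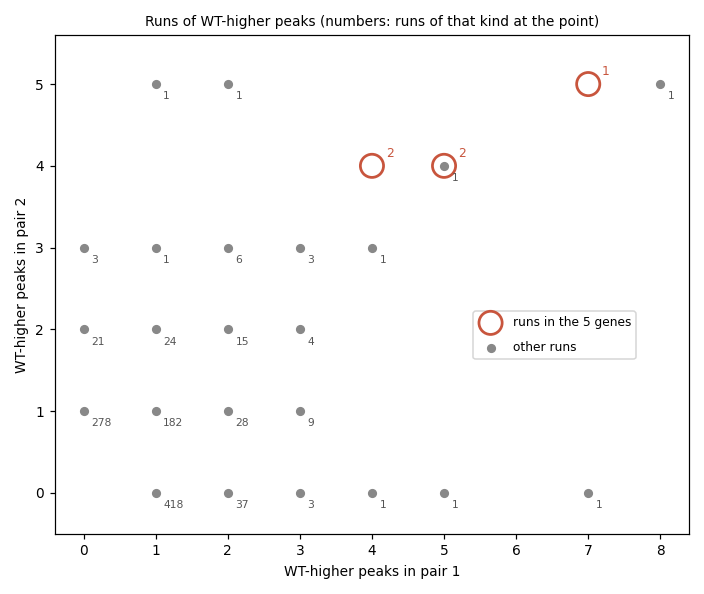
Each point is a run of WT-higher peaks at most 20 kb apart, chained with both pairs pooled. It is placed by its number of peaks in pair 1 (x axis) and pair 2 (y axis). Red circles mark the runs in the 5 genes, grey points the other runs, and the small numbers count runs of that colour at a point. The runs of the 5 genes sit at 4 or more peaks on both axes, beside 2 other runs.

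Among the WT-higher peaks of the 5 genes, heights and folds lay well inside the range of the lists. A deposited fold is the authors' value from the peak caller, WT over slow, namely the scaled WT pileup plus 1 over the slow background plus 1. The pileup counts WT fragments over the summit scaled down to the depth of the slow library. The median fold in the 5 genes was 7.32 in pair 1 and 9.87 in pair 2, and over all WT-higher peaks it was 6.89 and 7.0. Folds in the genes ranged from 3.80 to 13.5 in pair 1 and from 5.12 to 12.8 in pair 2. Unscaled WT fragments at the summits ran from 14 to 100 in pair 1 and from 9 to 73 in pair 2, with medians of 34 and 28, against list medians of 26 and 25. With a pseudocount of 3 in place of 1 in the fold, its median in the genes was 3.92 in pair 1 and 4.65 in pair 2.

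The genes differed in how much slow signal lay under their WT-higher peaks. The slow background is the highest of the fragments at the summit, the averages over windows of 1000 and 10000 bp, and the genome-wide average, so a value under 1 means that 0 slow fragments lay at the summit. A whole value was read as the fragments at the summit, and other values above 1, at 1 NR2F2 peak and 2 PPP1R26 peaks, come from a window and leave that number unknown. In FLG the value was under 1 at all 7 peaks of pair 1 and all 5 of pair 2, and in NR2F2 at 0 of 4 in each pair. PPP1R26 had 0 of 4 such peaks in pair 1 and 1 of 4 in pair 2. ZNF711 had 1 of 5 and 3 of 4, and AMOT 4 of 5 and 3 of 4. Together this made 12 of 25 and 12 of 21 peaks, beside 56.7% and 50.4% of all WT-higher peaks. At 5 and 7 peaks of the genes the background was at its floor, the genome-wide average of 0.0365 and 0.0282 fragments, beside 22.8% and 23.2% of all WT-higher peaks.

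**Figure D2:**
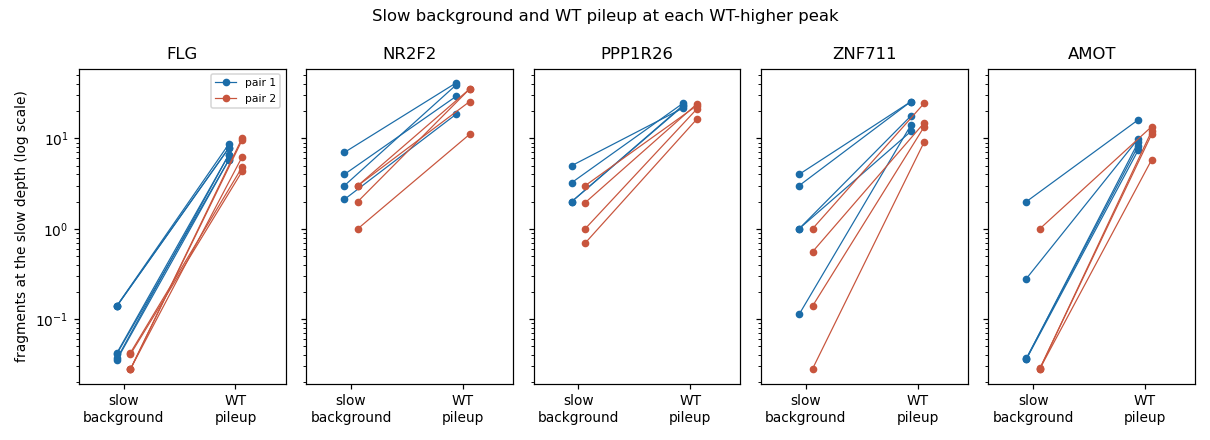
For each of the 5 genes, every WT-higher peak is a line joining its slow background (left) to its scaled WT pileup (right), in fragments at the depth of the slow library on a log scale, with pair 1 in blue and pair 2 in red. FLG peaks start at 0.141 fragments or less in the slow libraries, while NR2F2 peaks start between 1.0 and 7.0.

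FLG, on chromosome 1 from 152274651 to 152297679 (minus strand), had WT-higher peaks of low height over a slow background near 0. From 5′ to 3′ in pair 1, the slow background was 0.0367, 0.141, 0.0425, 0.0416, 0.141, 0.141 and 0.0357 fragments, against 16, 19, 16, 14, 19, 21 and 14 WT fragments at the summits. In pair 2 it was 0.0424, 0.0408, 0.0278, 0.0280 and 0.0281, against 10, 9, 21, 20 and 13 WT fragments. The WT range of FLG, 9 to 21 unscaled fragments, was the lowest of the 5 genes. A low WT pileup can be called only over a low slow background, so the calling limits how small the gap between them could be. Scaled FLG pileups reached 10.1, in pair 2. Slightly taller peaks, at 11.9 in ZNF711 (pair 1) and 11.1 in NR2F2 (pair 2), were called over 1.0 slow fragment. How far the calling set the gap at the taller FLG peaks was not tested. The tallest peak of pair 1, from 152278105 to 152278312, was 8.46-fold higher in WT, and its 21 WT fragments have an exact Poisson 95% interval of 13.0 to 32.1. The tallest of pair 2, from 152279084 to 152279352, was 10.8-fold higher, also with 21 fragments. With 0 slow fragments at a summit, the data bound the ratio from below. The bound sets the WT count, taken as exact, against the 3 fragments that a slow count of 0 allows at a 1-sided 95% limit. On this basis WT was at least 1.92-fold to 2.88-fold higher per peak in pair 1 and at least 1.44-fold to 3.37-fold in pair 2. Counting error in the WT fragments is left out and would lower these bounds. Whether the lowest of them would still exceed 1 was not computed.

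FLG summits were spaced at recurring distances. All 12 lay in the 3′ part of the interval, between 54.8% and 93.0% of its length from the 5′ end. Neighbouring summits of pair 1, taken by rising coordinate, were 1943, 969, 1042, 903, 1045 and 1879 bp apart. In pair 2 the distances were 2048, 972, 1836 and 3949 bp. The shortest distances were thus near one value and the longer ones near multiples of it, in an array of repeats that are close copies of one another. At a stricter limit, a −log10 q of at least 5, where q is the caller's p-value adjusted over its tests, 7 FLG peaks were left in pair 1 and 3 in pair 2. Of all FLG peaks, 4 in each pair overlapped a peak of the other pair. Summits of these 4 regions differed by 0, 1, 105 and 108 bp between the pairs. How the alignments placed reads that match several repeats equally is not given in the sources used here, so the number of separate FLG peaks is uncertain. RefSeq (GRCh38) also places the non-coding gene CCDST, also named FLG-AS1, across FLG, and the peaks carry no strand.

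**Figure D3:**
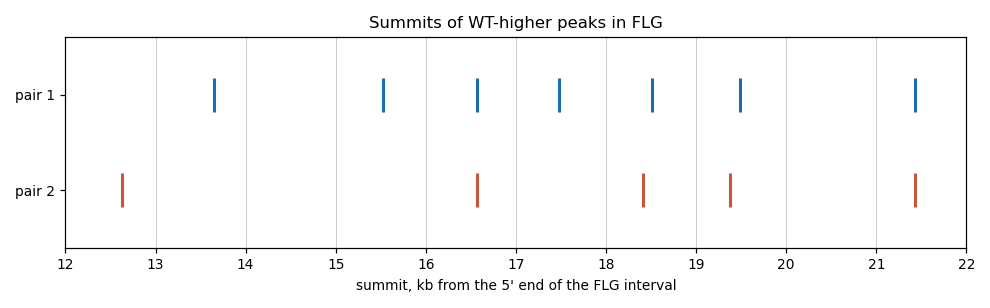
Ticks mark the summits of the WT-higher peaks in FLG by their distance in kb from the 5′ end of the gene interval (x axis), with pair 1 above and pair 2 below. Neighbouring ticks are mostly about 1 kb apart or a multiple of it, and the summits at 16571 bp in pair 1 and 21428 bp lie within 1 bp of one in pair 2.

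NR2F2, on chromosome 15 from 96869157 to 96883492 (plus strand), had the tallest WT-higher peaks of the 5 genes and the most slow signal beneath them. In pair 1, from 5′ to 3′, the slow background was 2.12, 4.0, 7.0 and 3.0 fragments, against 45, 71, 100 and 95 WT fragments. In pair 2 it was 3.0, 3.0, 2.0 and 1.0, against 53, 73, 73 and 23 WT fragments. Slow fragments lay at the summits of 3 peaks in pair 1 and of all 4 in pair 2. The peak with 100 WT fragments, from 96875031 to 96875591, ranked 12 by pileup among the 915 WT-higher peaks of pair 1, yet its fold was 5.27. Counting 7 slow and 100 WT fragments there, the ratio of WT to slow per unit depth was 5.88, with an exact 95% interval of 2.75 to 15.0. The highest fold was at the peak from 96877346 to 96877540 in pair 1 and from 96877382 to 96877563 in pair 2, at 10.0 and 12.1. Its ratio per unit depth was 13.0 (exact 95% interval 4.33 to 64.4) in pair 1 and 17.6 (4.70 to 148) in pair 2.

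NR2F2 signal sat in the middle of the interval. Its summits lay between 37.2% and 58.0% of the length in pair 1, and in pair 2 a further peak from 96880570 to 96880709 lay at 79.9%. That last peak had 23 WT fragments over 1.0 slow fragment, was 6.04-fold higher in WT and was not called in pair 1. The first 2 peaks of pair 1 overlapped 1 peak of pair 2, from 96874427 to 96874774. The peak from 96875031 to 96875591 in pair 1 and from 96875047 to 96875608 in pair 2 was the widest of all members, at 561 and 562 bp, and its summits differed by 274 bp between the pairs. In RefSeq (GRCh38) the non-coding gene NR2F2-AS1 and the microRNA gene MIR1469 overlap NR2F2, and the peaks cannot be assigned between them.

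PPP1R26, on chromosome 9 from 138371648 to 138380739 (plus strand), was the gene of which every peak recurred: all 4 of each pair overlapped a peak of the other. In pair 1, from 5′ to 3′, the slow background was 2.0, 3.24, 5.0 and 2.0 fragments, against 57, 60, 53 and 56 WT fragments. In pair 2 it was 3.0, 1.95, 0.695 and 1.0, against 48, 50, 34 and 44 WT fragments. WT fragments lay between 53 and 60 along the gene in pair 1 and between 34 and 50 in pair 2. The tallest peak, from 138378775 to 138378980 in pair 1 and from 138378738 to 138379029 in pair 2, had folds of 6.06 and 8.51. Summits differed by 54, 4, 4 and 1 bp between the pairs, and 3 of 4 lay beyond 79.3% of the interval in each pair.

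The third PPP1R26 peak differed most between the pairs in its fold. From 138379287 to 138379524 in pair 1 it had 5 slow and 53 WT fragments at the summit and a fold of 3.80, the lowest among the members. From 138379287 to 138379541 in pair 2 it had 0 slow and 34 WT fragments and a fold of 10.3, which is 2.69 times that of pair 1. The ratio per unit depth in pair 1 was 4.36, with an exact 95% interval of 1.76 to 14.0. In pair 2 it was at least 5.46 with the WT count taken as exact. This bound lies inside that interval, so the counts do not set the pairs apart.

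ZNF711, on chromosome X from 84498966 to 84528368 (plus strand), carried peaks at both ends of the interval in pair 1. In pair 1, from 5′ to 3′, the slow background was 1.0, 0.113, 3.0, 4.0 and 1.0 fragments, against 29, 34, 62, 62 and 43 WT fragments. In pair 2 it was 0.139, 1.0, 0.0281 and 0.556, against 28, 51, 19 and 31 WT fragments. The peak from 84501903 to 84502140 in pair 1 and from 84501926 to 84502082 in pair 2 had the same summit, 84502020, and folds of 13.5 and 12.7. Its fold in pair 1 was the highest among the members and ranked 16 of 915. With 0 slow fragments there and the WT counts taken as exact, WT was at least 4.67-fold and 4.50-fold higher in the pairs.

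The tallest ZNF711 peak called in both pairs had summits 2 bp apart. From 84510350 to 84510667 in pair 1 it had 3 slow and 62 WT fragments, a ratio per unit depth of 8.51 (exact 95% interval 2.78 to 42.4). From 84510324 to 84510709 in pair 2 it had 1 slow and 51 WT fragments, a ratio of 24.6 (4.21 to 989). The intervals overlap widely. The peak that began at the first base of the interval, 84498966, was called in pair 1 only, with a −log10 q of 4.76. The interval may have been drawn to start at this peak, and the annotated hg19 start of ZNF711 was not checked here. Near the 3′ end, the peak from 84525832 to 84526337, which also had 62 WT fragments, was also called in pair 1 only. The peak from 84520058 to 84520209 was called in pair 2 only, with 19 WT fragments and the slow background at its floor.

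AMOT, on chromosome X from 112017731 to 112084043 (minus strand), had the longest run, with low slow signal as in FLG. In pair 1, from 5′ to 3′, the slow background was 2.0, 0.0362, 0.0370, 0.282 and 0.0366 fragments, against 39, 18, 20, 24 and 22 WT fragments. In pair 2 it was 1.0, 0.0283, 0.0282 and 0.0284, against 28, 12, 25 and 23 WT fragments. The tallest peak was the most 5′ one in both pairs, from 112065643 to 112066075 and from 112065792 to 112066125, and it alone had slow fragments at the summit. Its ratio of WT to slow per unit depth was 8.03 (exact 95% interval 2.08 to 68.6) in pair 1 and 13.5 (2.23 to 551) in pair 2. Peaks with 0 slow fragments were bounded with the WT counts taken as exact. There WT was at least 2.47-fold to 3.29-fold higher in pair 1 and at least 1.93-fold to 4.01-fold in pair 2.

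The AMOT run was spread thinly. The first and last AMOT summits were 44150 bp apart in pair 1 and 43076 bp in pair 2, and peaks covered 1.86% and 1.40% of the interval. In PPP1R26, the shortest interval, they covered 8.89% and 10.00%. Summits lay between 27.4% and 94.0% of the AMOT interval from the 5′ end. The peaks from 112035165 to 112035318 and from 112021600 to 112021829 were called in pair 1 only. The peak from 112048214 to 112048390 was called in pair 2 only, with 25 WT fragments, a fold of 12.7 and the slow background at its floor. In RefSeq (GRCh38), the microRNA gene MIR4329 lies within AMOT.

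**Figure D4:**
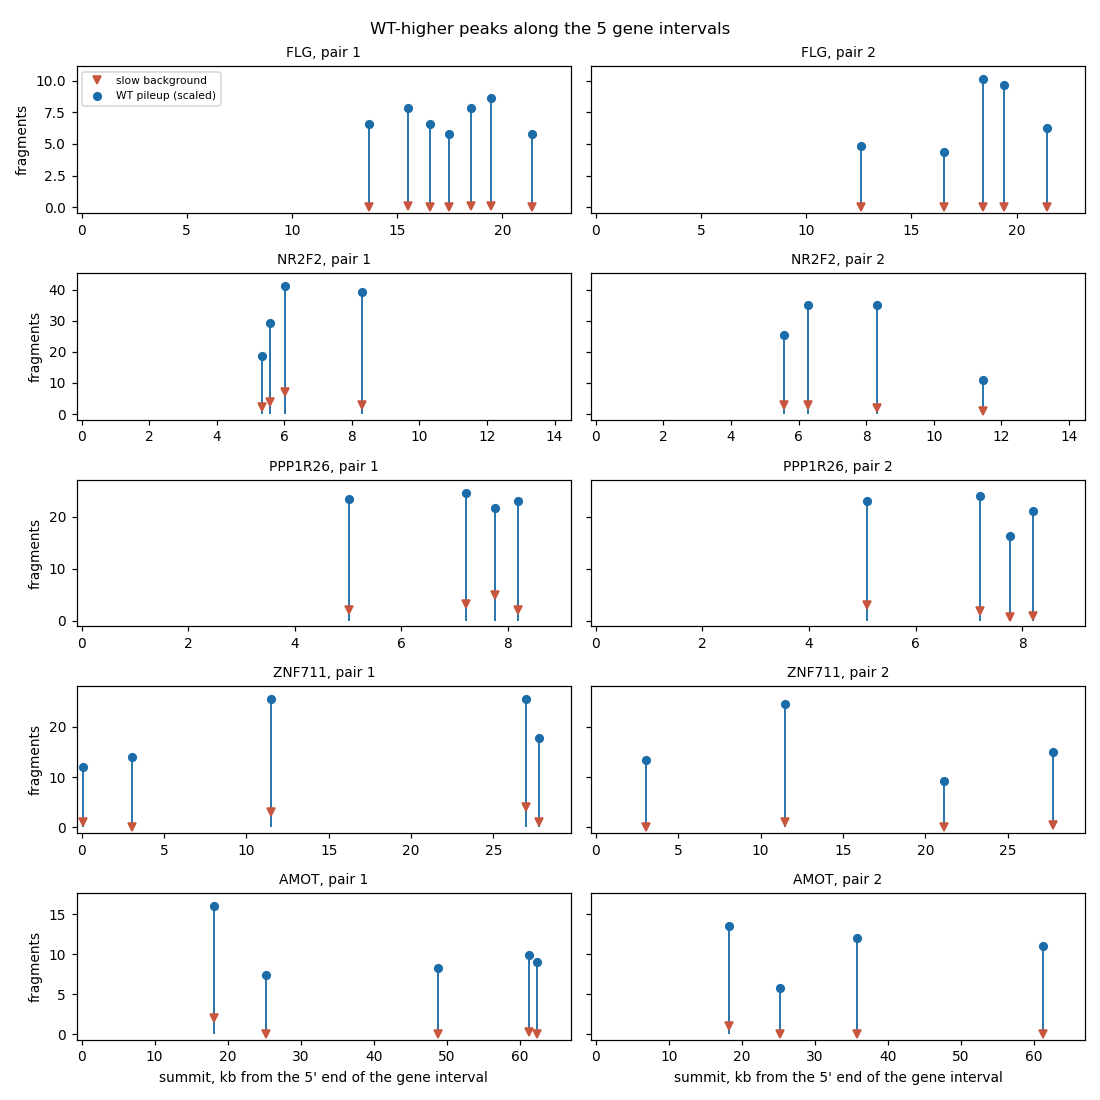
Each row is a gene and each column a pair. Stems with blue points give the scaled WT pileup and red triangles the slow background, in fragments at the depth of the slow library (y axis), at the summit's distance in kb from the 5′ end of the gene interval (x axis, full interval). PPP1R26 shows the same 4 positions in both pairs, FLG peaks keep to the 3′ part, and ZNF711 and AMOT peaks are spread along the gene.

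Summed over the 5 genes, summits lay more often towards the 3′ end, mainly through FLG and PPP1R26. In pair 1, 17 of 25 summits lay beyond 50% of their interval, 11 in its last 25% and 2 in its first 25%. In pair 2 these numbers were 15 of 21, 9 and 1. All FLG and PPP1R26 summits lay beyond 50% in both pairs. In NR2F2, ZNF711 and AMOT, summits lay on both sides of that point in each pair. The share over all WT-higher peaks was not computed. Peaks of 1 gene share a transcript and are not independent, and intervals include introns, so this is a description of 5 genes. Exons, coding sequence and UTRs of the hg19 build were not used here, so the peaks are not assigned to them.

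Most peaks of the 5 genes overlapped a peak of the other pair. In pair 1, 18 of 25 overlapped a WT-higher peak of pair 2 (72.0%), and 29.9% of all WT-higher peaks did. In pair 2, 17 of 21 overlapped one of pair 1 (81.0%), and 38.5% of all did. The genes were chosen for many peaks in both pairs, which makes overlap more likely, and peaks of 1 gene are not independent, so nothing is read from the difference. Joined over the pairs, the peaks formed 28 regions, of which 17 were in both pairs, 7 in pair 1 only and 4 in pair 2 only. In PPP1R26 all 4 regions were in both pairs, and in FLG 4 of 8 were. A peak missing from a pair was not called at that depth and cannot be read as absent.

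In the 17 regions called in both pairs, the WT height was closer between the pairs than the fold was. Both the scaled WT pileup and the slow background are at the slow depth of their pair, and equal signal per read would give 0.784 of the pair 1 value in pair 2. The scaled WT pileup in pair 2 was between 0.657 and 1.29 times that in pair 1, and at 14 of the 17 regions this ratio was above 0.784. The log2 values of the pileup had a Pearson's r of 0.97 and a Spearman's rho of 0.99. The slow background had an r of 0.92 and a rho of 0.78, and the ratio of pair 2 to pair 1 was below 0.784 at 13 regions. At 2 regions it was at its floor in both pairs, where depth and fragment length fix the ratio. For the fold, r was 0.29 and rho 0.38, and at 13 regions it was higher in pair 2. The fold in pair 2 was at most 2.69 times that in pair 1. Folds were at least 1.5 times apart at 3 regions, and pileups at 1. The folds spanned a narrower range than the pileups, so their correlations are not on equal terms. These are correlations across regions of 5 genes that share 4 libraries and their depths, and regions of 1 gene are not independent. Summits differed by a median of 6 bp, and at 13 of the 17 by at most 20 bp. Taken by shared peak of pair 1, the median was 9 bp over the 18 in the genes. Over all 274 shared WT-higher peaks of pair 1 it was 12 bp, so close summits were usual among shared peaks.

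**Figure D5:**
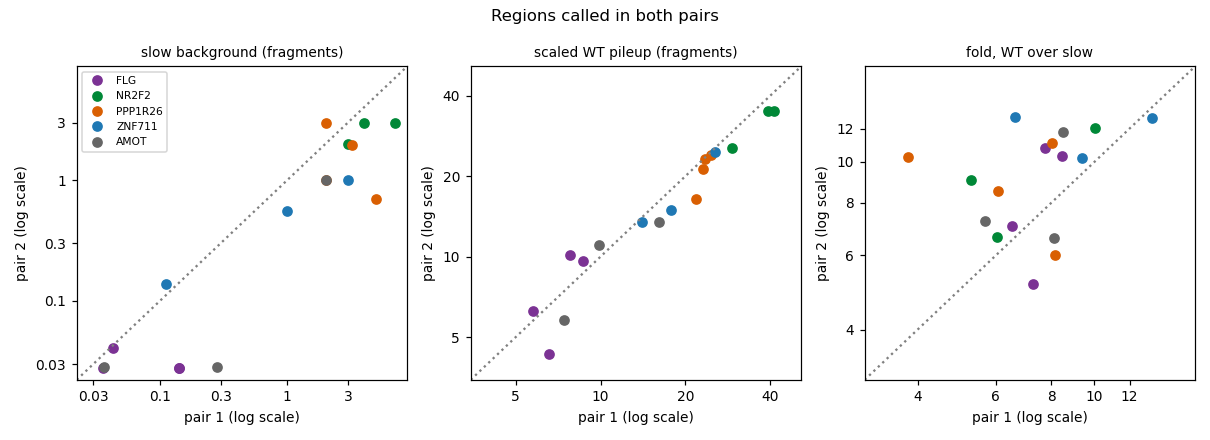
The 17 regions called in both pairs are plotted by their value in pair 1 (x axis) and pair 2 (y axis), on log axes, coloured by gene, for the slow background, the scaled WT pileup and the fold of WT over slow; the dotted line marks equal values. WT pileups follow the line from FLG at the low end to NR2F2 at the high end, and the folds scatter around it. Some points of the slow background coincide.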

How the data were processed

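The series holds m6A-immunoprecipitated RNA (MeRIP-seq) data of 2 slow and 2 WT libraries of HEK293 cells. The submitters' processing notes name TopHat2 and the hg19 build, and the file headers name TopHat2 alignments as the caller's input. Per the file headers, MACS 2.1.1.20160309 called peaks at a q-value limit of 0.01, with 1 library as treatment and the same-numbered library of the other condition as control, keeping 1 read per position and strand. Replicates were not pooled. The deposited pileup is a coverage signal, scaled by the caller to the smaller library. The deposited fold ratio has a pseudocount of 1. The authors' lists also give −log10 p and −log10 q, in columns whose header names were lost and which were told apart by the caller's column order.

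The slow background was computed from pileup and fold, and unscaled WT fragments were whole within 0.05. A background within 0.002 of the genome-wide average was called the floor. Shared peaks overlap by at least 1 bp. Ratio and Poisson intervals are exact at 95%, in Python 3.11.15 with SciPy 1.17.1. The ratio per unit depth uses summits with a whole number of slow fragments. The overlap and run rules were tested on simulated data, 1000 peaks per list, and returned the planted numbers. The 5 genes, the rules for naming and the alternatives were chosen with earlier results of these data known. All 5 genes are named with every peak, and the tallest peak of each is given in full. Peaks described beyond that were chosen after their values were seen. Relatives of the 5 genes, exon positions and sequence motifs under peaks were not analysed here, since they need an hg19 annotation and genome.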

Additional observations from a re-analysis of the deposited data

How the results depend on the processing

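Of 55 alternatives, 52 left counts within 1.5 times and other values within 1 SD of the pairs, but many could hardly move a value. Taking summits inside the interval, widening it by 5 kb or requiring folds above the depth ratio changed nothing. The median fold of 1 pair always lies within 1 SD of the mean of the 2 pairs. A stricter q limit cannot add to 0 slow-higher peaks. The number 52 is therefore no measure of robustness, and the 3 alternatives that moved a value follow. The mean share of WT-higher peaks found in the other pair was 76.5%, falling to 70.1% when 50% of both peaks had to overlap and to 61.3% when their summits had to lie at most 100 bp apart. The mean of the median folds was 8.60, and 4.29 with a pseudocount of 3 in place of 1, since the slow background was mostly low. At a −log10 q of at least 5, FLG kept 3 of 5 peaks in pair 2 and 7 of 7 in pair 1. Leaving out 1 pair gave 21 to 25 WT-higher peaks, 0 slow-higher peaks and median folds of 7.32 to 9.87; the share found in the other pair then has no value. No paired analysis was possible because no result comes from a test: the genes were chosen on this contrast, and the folds are within-pair values, described as such. Motif and exon alternatives were not run. Depth limits the slow values most: with 0 to 7 slow fragments at a summit, ratios are loosely bounded.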
